A study of Rattus norvegicus with 2 samples.

Results

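Rat chromosome 4 was represented by 16976 of the 235872 probes kept on the array. Its probes were selected by position alone, as those whose deposited location starts on chromosome 4 of the rat assembly rn4, but the chromosome itself was chosen by measured values, because it holds several long 8-oxoG-rich stretches and the lowest 1 Mb fragment of the genome among those with at least 50 probes. Its own levels are therefore given as a description. Of 17123 spots, 18 were dropped because Feature Extraction had marked them as outliers in at least 1 channel, which removed 3 probes entirely, and the 72 probes spotted more than once were averaged. The probes span chr4:47430-187117389, and another 139 probes assigned to the randomly placed sequence of the chromosome were not counted.

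8-oxoguanine (8-oxoG) was profiled in the kidney of 2 male rats of the strain labelled Wister rat, 5 weeks of age and kept under normal condition, with 1 array per rat. Genomic DNA was extracted under argon with Desferal, an iron chelator that limits oxidation during handling. DNA precipitated with the 8-oxoG antibody N45.1 was labelled with Cy5 and the input DNA of the same strain, sex, age and tissue with Cy3, using 800 ng for each labelling. Both rats belong to a single group, there was no treated or untreated comparison group and no dye swap, so a difference between dyes cannot be told apart from a difference between IP and input. Whole kidney DNA was used, and its cell types are not resolved.

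8-oxoG is formed when reactive oxygen species oxidise guanine, the base with the lowest redox potential. It can pair with adenine as well as cytosine, so that an unrepaired lesion can become a G-to-T change at replication. In base excision repair OGG1 removes 8-oxoG opposite cytosine, and MUTYH removes adenine that was inserted opposite 8-oxoG. The RefSeq gene table of a later assembly places Ogg1 itself on rat chromosome 4, together with other DNA repair genes such as Xpc, Rad18 and Fancd2, the Hoxa cluster of developmental regulators, the water channel gene Aqp1 of the proximal tubule, and long neural genes such as Cntnap2 and Grm7. These names show what the chromosome carries. None of them was placed on the profile, since coordinates of the later assembly do not apply to rn4.

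The 8-oxoG level is log2(IP/input) of the processed intensities minus the median of all probes on that array, so a level of 0 is the middle of an array and does not mean that 8-oxoG is absent. The mean level of chromosome 4 was 0.02 on replicate 1 and -0.08 on replicate 2, or -0.03 ± 0.07 (SD, n = 2). The other chromosomes together had -0.02 and -0.10. Chromosome 4 was therefore close to the rest of the genome on both arrays, and it ranked 6 from the highest of 21 chromosomes. Its distance from the others is smaller than the difference between the rats, and it was not tested, because the chromosome was chosen on its levels. Chromosome 2, which has a similar number of probes, was at 0.09 and -0.02, and chromosome 5 at -0.01 and -0.09.

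Behind this average, single probes spread widely. The SD over the probes of chromosome 4 was 0.96 on replicate 1 and 1.26 on replicate 2, whereas spots of the same probe differed by an SD of 0.29 and 0.39. The middle quartiles ran from -0.57 to 0.63 on replicate 1 and from -0.73 to 0.68 on replicate 2. Levels above 1 on both arrays were found for 1042 probes (6.14%), and levels below -1 on both for 777 (4.58%). On the other chromosomes together these shares were 5.82% and 4.67%. The sign was shared between rats by 63.0% of the probes, and their levels correlated across probes with r = 0.35. The other chromosomes together had 63.1% and r = 0.34. The most extreme probes well above background show how far a single probe can lie from its surroundings. The highest, chr4:1811246-1811305, read 3.51 and 3.21 in a neighbourhood whose smoothed level was -0.27. The next, chr4:100780211-100780270, read 2.85 and 3.59 where the smoothed level was 0.29. The third, chr4:68087023-68087082, read 2.78 and 3.54 where it was -0.09. Of these high probes only the one at chr4:100780211-100780270 lay in a stretch above 0. The lowest, chr4:67650845-67650904, read -3.35 and -3.80 where the smoothed level was -0.06. The second lowest, chr4:84816346-84816405, read -1.90 and -5.17 where it was -0.02, and the third lowest, chr4:2515545-2515604, read -2.30 and -4.48 where it was -0.38. All of these low probes lay in stretches below 0. The smoothed level includes the probe itself, which can set its sign where it is as near 0 as -0.02.

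Averaging over longer stretches brought the rats together. The correlation between them over fragments of chromosome 4 was 0.43 for 50 kb, 0.56 for 200 kb, 0.72 for 500 kb, 0.83 for 1 Mb and 0.90 for 2 Mb, with 3637, 932, 375, 188 and 94 fragments. At the same sizes the other chromosomes together gave 0.42, 0.58, 0.71, 0.79 and 0.86, close to chromosome 4. Fragments share their arrays and probes and are not independent replicates. The pattern is one of domains rather than of isolated probes. When replicate 1 was set against replicate 2 at a distance, the correlation fell from 0.83 at the same fragment to 0.53 at 1 Mb, 0.33 at 2 Mb and 0.17 at 5 Mb. At 10 Mb it was -0.07.

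**Figure D1:**
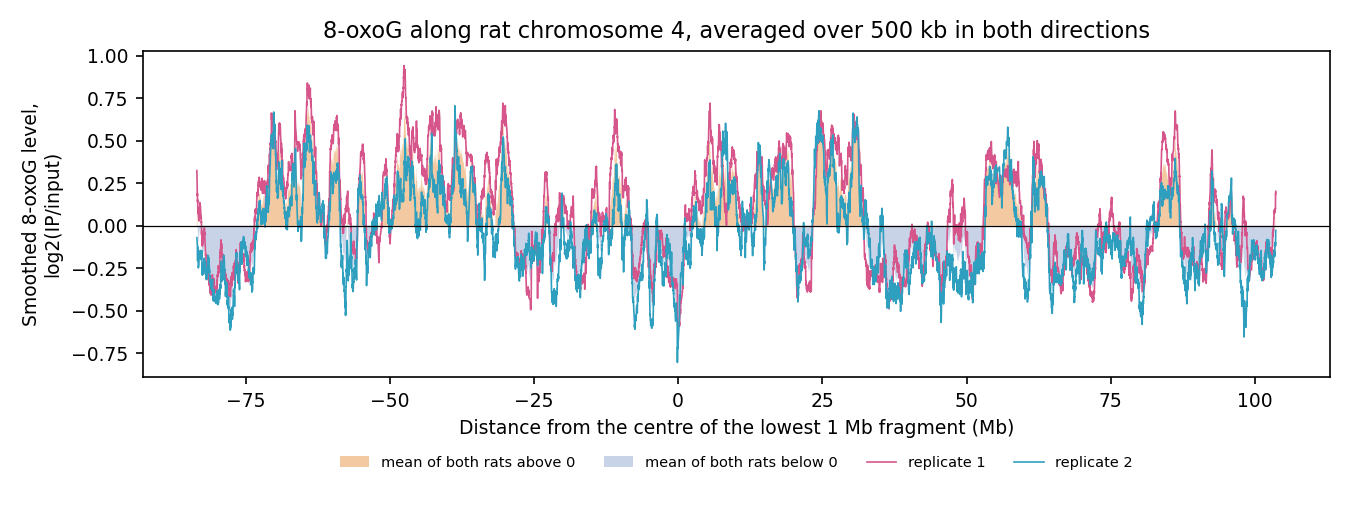
Smoothed 8-oxoG level (log2(IP/input), mean over 500 kb in both directions) along chromosome 4 against the distance in Mb from the centre of the lowest 1 Mb fragment. Lines are the 2 rats and shading is their mean. The rats follow the same succession of high and low stretches, with a maximum of 0.72 and a minimum of -0.66 in their mean, and replicate 1 lies above replicate 2 in most high stretches.

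Non-overlapping 1 Mb fragments gave 188 values with a median of 86 probes each, and 13 to 187 probes. By limma with Benjamini-Hochberg adjustment over all 2731 fragments of the genome, 49 fragments of chromosome 4 (26.1%) were called above 0 and 30 (16.0%) below 0, against 20.9% above and 20.4% below over all fragments. The chromosome was picked on these levels and nothing is read from these counts. Levels had the same sign in both rats for 75 fragments above 0 and 81 below, together 83.0% of fragments, against 81.6% on the other chromosomes. The median fragment was at -0.03, and the middle quartiles lay between -0.20 and 0.26. The SE of a fragment was 0.10, pooled by limma over all fragments because 2 arrays leave 1 residual degree of freedom. This SE was the same for every fragment. A call therefore depends only on the mean level, not on the probe number of a fragment or its own difference between rats. The processing sets how many fragments are called. With normexp background correction limma called 0 fragments above 0 (0 also at an unadjusted p under 0.05) and 8 below (54 unadjusted).

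**Figure D2:**
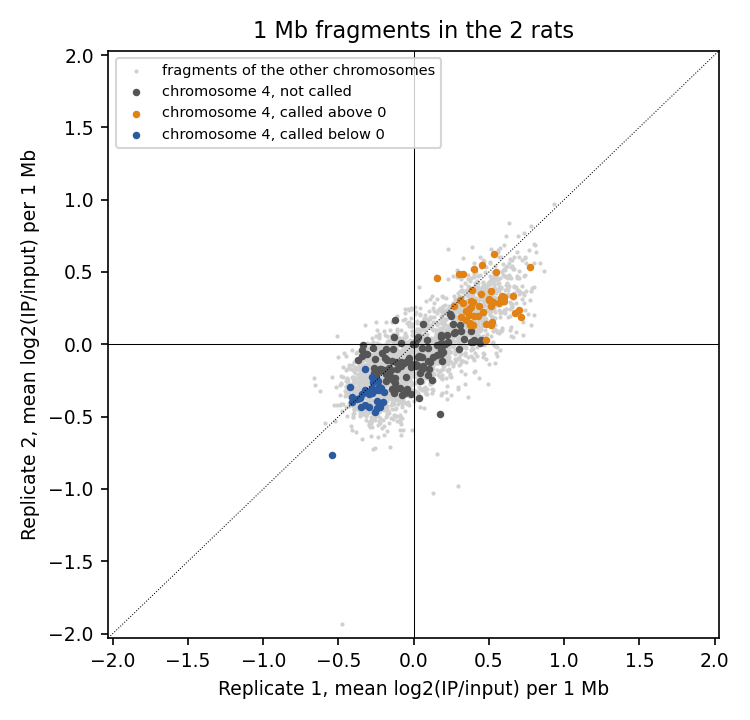
Mean log2(IP/input) of 1 Mb fragments in replicate 1 (horizontal axis) and replicate 2 (vertical axis), with chromosome 4 coloured by its limma call and all fragments of the other chromosomes, including those with few probes, in grey. The dotted line marks equal levels. The fragments of chromosome 4 run along it inside the cloud of the other chromosomes. Of them 143 of 188 lie on the side where replicate 1 is higher, as do 1775 of 2543 on the other chromosomes.

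Of the 3 highest fragments 2 lay in the same rich region, chr4:10316377-22097440. Among the 162 fragments with at least 50 probes, chr4:19000001-20000000 was highest with 0.77 and 0.53 in the rats (0.65 ± 0.17, SD, n = 2, 61 probes). Only 4 fragments of the genome with at least 50 probes were higher. The next were chr4:108000001-109000000 with 0.55 and 0.50 (0.52 ± 0.03), and chr4:13000001-14000000 with 0.46 and 0.55 (0.50 ± 0.07). All of these were above 0 in both rats, but with normexp background correction their means were 0.08, 0.05 and 0.0035, and the third was at -0.0031 on replicate 2. The fragment just outside this choice, chr4:40000001-41000000, stood at 0.46, within the SE of the third. A sparser fragment with 48 probes, chr4:114000001-115000000, read 0.54 and 0.62, above the second in the mean.

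The lowest fragment of the chromosome, chr4:83000001-84000000, read -0.54 on replicate 1 and -0.77 on replicate 2 (-0.66 ± 0.16, SD, n = 2), and ranked lowest among the 2222 fragments of the genome with at least 50 probes. It holds 51 probes, just inside that minimum. Over all 2731 fragments of any probe number 1 was lower, and it holds 2 probes. Among the 162 fragments of chromosome 4 with at least 50 probes it was also the lowest on each rat separately, by the mean and by the median over all its probes. Its medians were -0.48 and -0.56. The following fragments were less low in the mean, with -0.41 and -0.40 in chr4:134000001-135000000 and -0.35 and -0.43 in chr4:5000001-6000000. The fourth, chr4:2000001-3000000, was at -0.39 in the mean and does not differ from the third beyond the SE.

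Probes below 0 on both arrays occurred in each 200 kb piece of the lowest fragment. The fragment was picked for the low mean of these same probes, so the shares below are a description. Levels below 0 were found for 36 of its 51 probes on replicate 1 and for 38 on replicate 2, and 28 (54.9%) were below 0 on both, against 30.3% over the chromosome. Levels below -1 on both arrays were found for 12 probes (23.5%, against 4.58%), and 5 probes were above 0 on both. From its start, the 200 kb pieces of the fragment averaged -0.45 (21 probes), -0.49 (11), -0.81 (3), -0.47 (3) and -1.14 (13). Every piece was thus below 0 in the mean of both rats, and the last was the lowest. In the second piece 4 of 11 probes (36.4%) were below 0 on both arrays, near the share over the chromosome. Its median on replicate 2 was -0.07. A gap of 272237 bases without probes, chr4:83440674-83712910, leaves its middle poorly covered.

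The size of the dip depends on which probes are kept, mainly on replicate 2, but its sign did not change with the choices below. The lowest probe, chr4:83846334-83846389, read -2.24 on replicate 1 and -6.69 on replicate 2, where its IP intensity of 2.48 was not well above background. The second, chr4:83100252-83100311, read -2.58 and -4.28, and the third, chr4:83892009-83892068, read -2.94 and -1.81 with IP well above background in both rats. Without the 5 lowest probes, which raises the mean by construction, the fragment stood at -0.39 and -0.43. With only probes whose IP and input signals were well above background in both rats, and arrays centred on these, it stood at -0.52 and -0.42 (36 probes). Its lead over the next fragments was then within the SE, since chr4:2000001-3000000 read -0.46 and -0.40 and chr4:134000001-135000000 read -0.35 and -0.47, the latter below it on replicate 2. With normexp background correction it stood at -0.17 in the mean and chr4:2000001-3000000 at -0.15. In the fragment 43 probes had IP signals well above background on replicate 1 and 39 on replicate 2, and 48 and 46 had input signals well above it.

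Against the chromosome medians, this fragment differed more in input than in IP. The median input intensity of the fragment was 140 on replicate 1 and 117 on replicate 2, above the chromosome medians of 90.2 and 72.1. The median IP intensity was 92.8 and 85.2, near the chromosome medians of 96.4 and 73.2. IP was thus slightly below the chromosome median on replicate 1 and above it on replicate 2. Fragments of the chromosome called below 0 had median input intensities of 127 and 103 and median IP intensities of 102 and 85.6. Bright input was therefore shared with other low fragments, and the part of either channel in the dip was not tested. The neighbour before it, chr4:82000001-83000000, read -0.34 and -0.35, and the one after it read -0.21 and -0.06. By chr4:86000001-87000000 the level had reached 0.28 and 0.08, so the dip is bounded within about 3 Mb on that side. It belongs to a depleted region of 4.72 Mb, chr4:79875360-84598089, whose mean was -0.25 and -0.27.

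**Figure D3:**
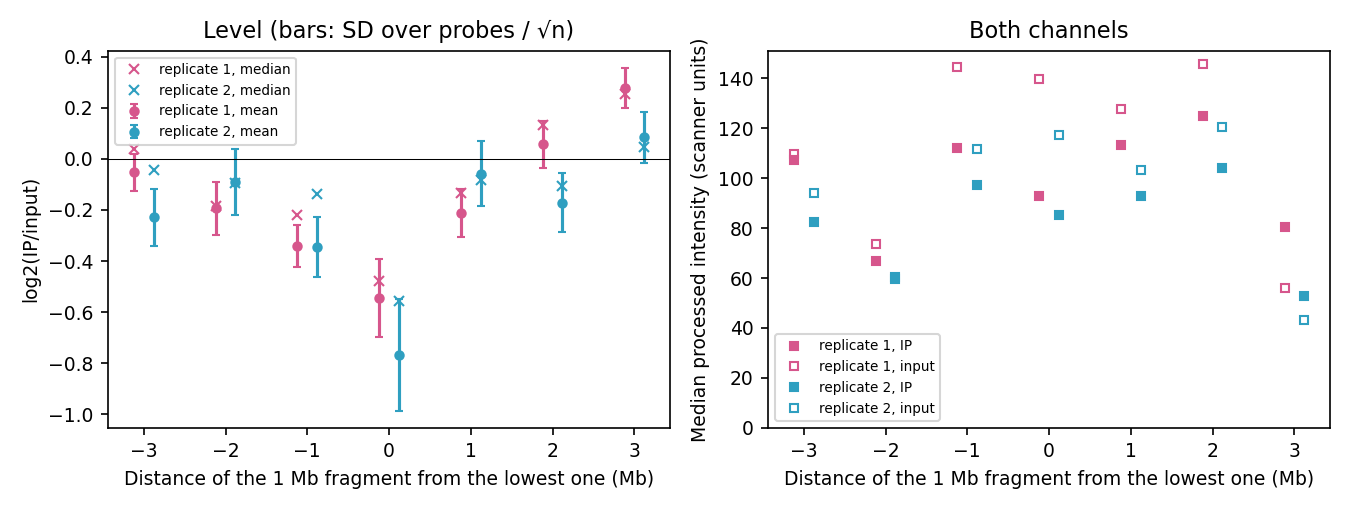
The lowest 1 Mb fragment and its neighbours, by distance in Mb. The left panel gives the mean level in log2(IP/input) for each rat with bars of SD over probes divided by the square root of their number, and crosses for medians. The right panel gives the median processed intensity of IP and input in scanner units. Means and medians of both rats are lowest at the centre. There, as in all neighbours shown except the last, input is above IP on both arrays.

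Smoothing over 500 kb in both directions divided the chromosome into stretches above 0 (rich) and below 0 (depleted). Of those at least 1 Mb long, 20 were rich and 20 depleted, with median lengths of 2.30 and 3.14 Mb. Shorter stretches numbered 64 and 63. Rich stretches of any length took 46.7% of the length of the chromosome but 40.1% of its probes, and depleted stretches 51.8% of the length and 59.9% of the probes. On the other chromosomes together rich stretches took 40.3% of the length. Chromosome 2 had 56.3% and chromosome 5 had 44.4%, so chromosome 4 stands between them.

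The longest rich region, chr4:33808324-48588723, extended over 14.8 Mb and 1009 probes, with a level of 0.40 on replicate 1 and 0.18 on replicate 2 (0.29 ± 0.16, SD, n = 2). All 14 fragments of 1 Mb inside it were above 0 in both rats. The second, chr4:10316377-22097440, covered 11.8 Mb at 0.32 and 0.17, and it contains the highest fragment of the chromosome and the third highest. The third, chr4:106797533-115662711, covered 8.87 Mb at 0.43 and 0.29. Each of these was above 0 in both rats, but replicate 2 alone breaks them up. On replicate 1 alone their lengths were 14.9, 11.6 and 8.88 Mb, while the longest overlapping stretch on replicate 2 alone was 4.08, 3.78 and 4.25 Mb. Other rich regions over 5 Mb were chr4:87661682-94157483 (0.34 and 0.13), chr4:98499785-103538762 (0.36 and 0.23) and chr4:136551307-143049995 (0.32 and 0.23). The highest mean of a rich region belonged to a shorter one, chr4:22827645-25002425, with 0.53 and 0.28 over 155 probes.

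The longest depleted region, chr4:115685268-130751549, extended over 15.1 Mb and 1488 probes and read -0.24 and -0.25 (-0.24 ± 0.01, SD, n = 2). All 14 fragments inside it were below 0 in both rats. Either rat alone breaks it up, with a longest overlapping stretch of 8.31 Mb on replicate 1 and 8.38 Mb on replicate 2. The region follows the third rich region, and the smoothed level changes sign between position 115662711 and position 115685268.
The second, chr4:162046-10163173, occupies the start of the covered chromosome over 10001128 bases at -0.23 and -0.32, and the third, chr4:147557501-156604070, covers 9.05 Mb at -0.22 and -0.25. Their overlapping stretches were 9.12 and 8.59 Mb on replicate 1 alone, and 10.4 and 10.2 Mb on replicate 2 alone. The means of the rats lay closer together in depleted than in rich regions. In the 20 depleted regions the average was -0.20 on replicate 1 and -0.25 on replicate 2, whereas in the 20 rich regions it was 0.35 and 0.17. All 20 rich regions were above 0 on replicate 1 and 17 on replicate 2, and 19 depleted regions were below 0 on replicate 1 and all 20 on replicate 2.

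**Figure D4:**
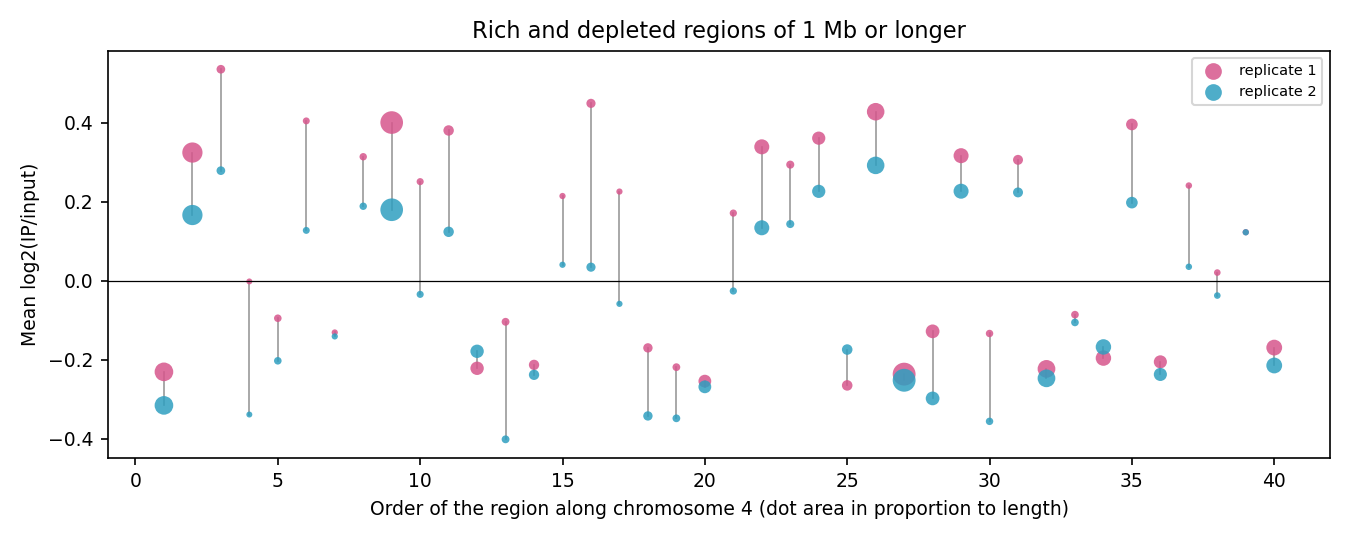
Mean log2(IP/input) of the 40 regions of 1 Mb or longer in each rat, in their order along chromosome 4, with dot area in proportion to length and a line joining the 2 rats. Rich regions average 0.35 and 0.17 on replicates 1 and 2, with replicate 1 higher in all 20 of them, and depleted regions average -0.20 and -0.25.

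To use measurements that did not define the regions, regions were found on one rat and read on the other. The 19 depleted regions found on replicate 1 were all below 0 on replicate 2, with a mean of -0.25. Of the 20 rich regions found on replicate 1, 15 were above 0 on replicate 2, with a mean of 0.14. The 23 rich regions found on replicate 2 were all above 0 on replicate 1, at 0.38 on average, and 20 of the 26 depleted ones were below 0 there, at -0.17. Most regions found on one rat thus lay on the same side of 0 on the other, while their height above 0 differed. The chromosome was chosen on the levels of both arrays, so these counts are a description. Replicate 1 was higher by 0.11 on average over the fragments of chromosome 4, and the part of this offset in the counts was not tested.

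Along the chromosome in intervals of 10 Mb, both ends were low and the parts between alternated. The first 10 Mb averaged -0.24 and -0.31, and the second 0.35 and 0.16, with 10 of 10 fragments above 0 in both rats. The interval from 40 to 50 Mb was at 0.33 and 0.16, again with 10 of 10 above 0. From 120 to 130 Mb the level was -0.23 and -0.28, and 10 of 10 fragments were below 0 in both rats. Beyond 180 Mb it was -0.15 and -0.21. From 50 to 90 Mb the interval levels averaged over the rats lay between -0.10 and -0.01. Replicate 1 ranged from -0.02 to 0.04 and replicate 2 from -0.18 to -0.06. High and low fragments alternated there. In this stretch chr4:53000001-54000000 read 0.66 and 0.34 (46 probes) and chr4:72000001-73000000 read 0.67 and 0.21 (47 probes). The lowest fragment, chr4:83000001-84000000 at -0.54 and -0.77, lies there too.

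Some transitions were sharp. Among 344 pairs of neighbouring 500 kb fragments with at least 20 probes each, the median step was 0.16 in size, and 69.5% of steps had the same direction in both rats. The largest, at 36.5 Mb inside the longest rich region, went from 0.94 (21 probes) to 0.11 (30 probes). It was -0.76 on replicate 1 and -0.90 on replicate 2. The other large steps were upward, at 72 Mb (0.76 and 0.61, with 24 and 23 probes on its sides) and at 23 Mb (0.57 and 0.77, with 38 and 25). Most of these means rest on few probes above the minimum, so the step sizes are uncertain. All of these were present in both rats in the same direction.

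The rats did not match everywhere. Levels of opposite sign were found in 32 of the 188 fragments, of which 28 were above 0 on replicate 1 and below 0 on replicate 2. On the other chromosomes 469 of 2543 fragments had opposite signs, and 390 of these went the same way. Replicate 1 was higher by 0.11 on average over the fragments of chromosome 4, with an SD of 0.17. Over the other chromosomes it was higher by 0.10, with an SD of 0.19, so this offset is not particular to chromosome 4. The largest difference was in chr4:181000001-182000000, at 0.18 on replicate 1 and -0.49 on replicate 2, and this fragment was not called. Some sparser fragments followed, such as chr4:35000001-36000000 with 48 probes, at 0.72 and 0.19. Among fragments with at least 50 probes the next were chr4:17000001-18000000, at 0.44 and 0.01, and chr4:52000001-53000000, at 0.45 and 0.03. These last lie inside rich regions that replicate 2 alone interrupts or lowers.

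High levels on chromosome 4 were accompanied by dim input and sparse probes. Fragments called above 0 had a median of 56 probes and median input intensities of 54.1 and 40.5 on replicates 1 and 2, while those called below had 120.5 probes and 127 and 103. IP intensities differed less and in the same direction, at 85.2 and 60.5 against 102 and 85.6. High fragments were therefore dim in both channels, and more so in input. Across the 188 fragments the level correlated with log2 input intensity at r = -0.79 (-0.63 over the other chromosomes) and with the number of probes at r = -0.46. The input intensity enters the level itself, but the level on replicate 1 also correlated at -0.79 with the input intensity of replicate 2, and the level on replicate 2 at -0.72 with that of replicate 1. These points share probes and their base composition, which was not measured here. When the trend of the level on input brightness was removed from each array, an alternative chosen after seeing the data, the correlation between rats was 0.70, limma called 20 fragments above 0 and 13 below, and chr4:83000001-84000000 was still at -0.60. The part of brightness in the profile was not tested.

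**Figure D5:**
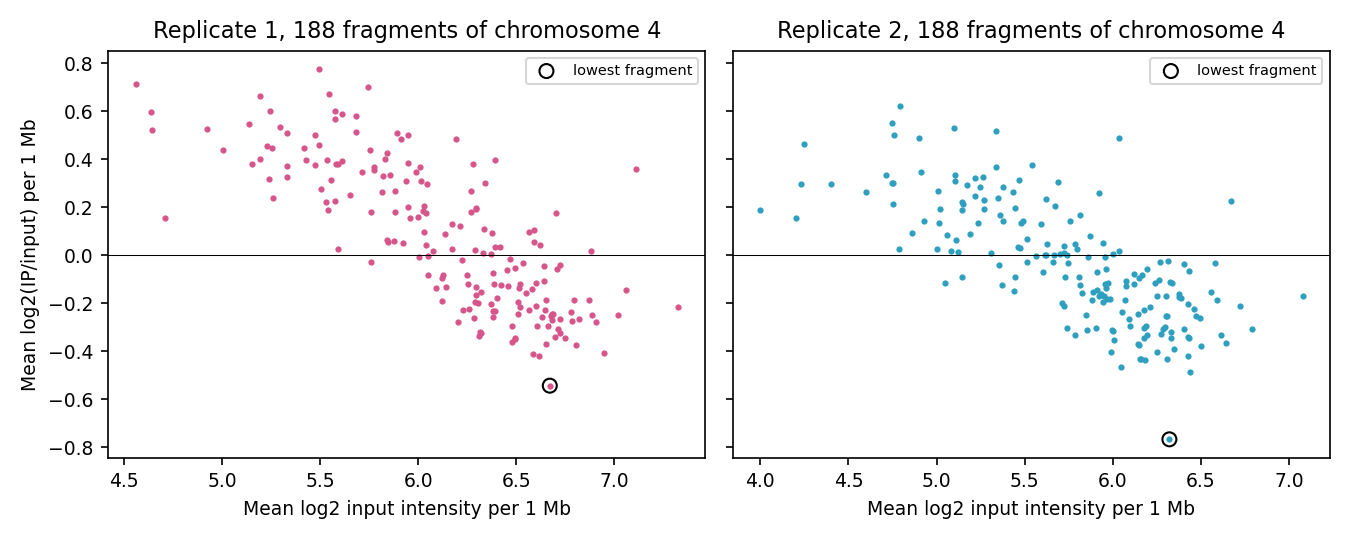
Mean log2(IP/input) of each of the 188 fragments of chromosome 4 against its mean log2 input intensity, with 1 panel per rat and the lowest fragment circled. Levels decline with brighter input on both arrays, and the lowest fragment lies at -0.54 and -0.77, under the other fragments of similar input.

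The extreme probes were distributed like the domains. Of the 1042 probes above 1 on both arrays 68.2% lay where the smoothed level was above 0, and of the 777 below -1 on both 21.5% did, against 40.1% of all probes of the chromosome. In the rich regions of at least 1 Mb 10.99% of probes were above 1 on both arrays, and in the depleted ones 3.005%. These probes belong to the smoothed means themselves, so the shares are a description. For the same reason the share of probes above 0 differs by construction: it was 65.7% on replicate 1 and 59.0% on replicate 2 in rich regions, and 42.1% and 44.9% in depleted ones.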

How the data were processed

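Kidney DNA of 2 rats was hybridised to Agilent Rat Genome CGH arrays. The authors deposited, per the file headers, processed intensity values of both channels from Agilent Feature Extraction 10.5.1.1, which subtracts background, removes spatial trends and normalizes dyes by lowess. The deposited log10 ratio was not used. A deposited table of log2 values equals log2 of processed red over green, uncentred, and served as an alternative.

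Here log2(IP/input) was computed from the processed intensities and centred on each array's median, without loess or quantile normalization. Saturated spots were kept, and for 13376 of the 16976 probes IP and input signals were well above background in both rats. Fragments were fitted against 0 by limma 3.58.1 in R 4.3.3 (lmFit, eBayes, two-sided, adjusted p under 0.05) over the whole genome, after the script was tested on simulated data. Other steps used Python 3.11.15, numpy 2.4.6, pandas 2.3.3, scipy 1.17.1 and matplotlib 3.10.9. The number of arrays, 2, limits precision, and p-values measure only the spread between these samples, pooled over all fragments.

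Named fragments hold at least 50 probes. They are the 3 highest and 3 lowest with the same sign on both arrays and the 3 that differ most between rats. Named regions are the 3 longest of each kind, and named steps the 3 largest. Named probes are the 3 highest and 3 lowest that are well above background and beyond 1 on both arrays. Other regions and the single probes of the lowest fragment were chosen after their values were seen. The chromosome, lists and tests were chosen with earlier results of these data known. Alternatives covered background correction (normexp, offset 50, on median signals), dye normalization, filters, centring, fragment size and grid, windows and each replicate alone. Planned results on genes and on genic against other probes were not run, since no rn4 annotation or genome was used here. No sequence is printed for the same reason.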

Additional observations from a re-analysis of the deposited data

How the results depend on the processing

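With 2 arrays, levels near 0 and fragments with dim IP are the least certain. The mean of chromosome 4 lies so near 0 that its sign follows the processing: it was 0.0012 before dye normalization, 0.0074 in the uncentred table of the authors, -0.079 without replicate 1 and 0.020 without replicate 2. Against 49 fragments above 0 and 30 below, normexp left 0 and 8, removal of the brightness trend (chosen after seeing the data) 20 and 13, the median over probes 13 below, and a level beyond 0.25 on both arrays 28 and 18. Other settings gave 46 to 61 above and 25 to 40 below. Over fragments the correlation between rats, 0.83, was 0.76 with normexp, 0.70 without the brightness trend, 0.56 for 200 kb and 0.90 for 2 Mb. Counts of regions stayed within 1.5 times of 20 except for 32 depleted regions with a window of 250 kb. With either replicate left out there were 20 to 23 rich and 19 to 26 depleted regions. Under the 7 alternatives that keep both rats, the 17 named levels gave 119 values, of which 82 moved by less than the SD between rats, 36 moved by more and 1 changed sign. Leaving out a rat cannot move a level by more than that SD and is not counted. The changes of sign were these: chr4:52000001-53000000 was at -0.0090 with normexp, and chr4:181000001-182000000 between -0.49 and 0.18 with either replicate left out. Normexp, whose offset of 50 is added to both channels and shrinks log ratios, brought the 3 longest rich regions to between 0.00 and 0.02, the 3 longest depleted ones to about -0.11, and chr4:83000001-84000000 to -0.17. A single array leaves nothing for limma to estimate the spread from, so calls without each replicate were not run, nor were the planned settings on genes. No paired analysis was possible because no second group exists, and IP and input are already paired within each array.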

Other observations

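The 139 probes of the randomly placed sequence of chromosome 4, which entered no comparison, averaged -0.03 on replicate 1 and -0.14 on replicate 2 (-0.08 ± 0.08, SD, n = 2). Their median input intensities were 103 and 82.3. The longest stretches of chromosome 4 without a probe were chr4:99243120-99798009, chr4:47001824-47512837 and chr4:138704854-139206865, each over 500 kb and each inside one of the rich regions, so the level there rests on the probes at the edges of the gap.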
